A study of Arabidopsis thaliana with 12 samples.

Results

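The genes described here are 10 Arabidopsis loci that encode mitotic cyclins and B-type cyclin-dependent kinases (CDKs). They were chosen by locus from 32678 genes in the count table, by a rule that uses no measured value, although earlier results of these data were known. The group holds 1 A-type cyclin (CYCA1;1, AT1G44110), 3 B1 cyclins (CYCB1;1, AT4G37490, CYCB1;2, AT5G06150, and CYCB1;4, AT2G26760), 2 B2 cyclins (CYCB2;1, AT2G17620, and CYCB2;2, AT4G35620) and 4 B-type CDKs (CDKB1;1, AT3G54180, CDKB1;2, AT2G38620, CDKB2;1, AT1G76540, and CDKB2;2, AT1G20930). The RNA-seq data come from wild-type Col-0 plants of 28 to 35 days, sprayed with 500 µM abscisic acid (ABA, the hormone of drought and salt responses) or with mock solution. Mock and ABA solutions shared 0.5% ethanol and Tween20, so all plants received the solvent. The old true leaf L7 and the young true leaf L12 were taken 48 h after the spray, and there were 3 libraries in each of the groups mock L7, ABA L7, mock L12 and ABA L12. The labels call both leaves fully expanded, and the study repeated the experiment 3 times.

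A CDK is inactive without a cyclin, and the cyclin bound to it sets when and on which proteins it acts. Plants are the only group with B-type CDKs, whose transcripts accumulate from S phase to mitosis, while B-type cyclins accumulate shortly before mitosis and are destroyed as chromosomes separate. In a leaf, general cell proliferation stops early and from the tip, and the last dividing cells are scattered precursors of stomata and vascular cells, so transcripts of these genes are used as marks of dividing cells. Many of their promoters carry the mitosis-specific activator (MSA) element, which is bound by MYB3R transcription factors and has the core AACGG.

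Sequence around a selection of the MSA cores is shown because all 6 cyclin promoters held such cores. In a window from 250 bases before to 50 bases after the annotated start of each gene (RefSeq annotation of TAIR10.1), the core AACGG occurred on either strand in 7 of 10 members. It occurred in 24.7% of 27443 promoters of the same length, and in 26.6% of the 17797 promoters of genes tested here. At least 2 cores stood in 6 of 10 member promoters, which are the promoters of the 6 cyclins, and in 4.89% of all promoters. The cyclin promoters held 2 to 5 cores, the promoter of AT1G20930 held 1 and those of the other 3 kinases held none. The E2F site forms TTTCCCGC (0.798% of all promoters) and TTTGGCGC (0.434%), also searched on either strand and free of overlap with the core, were found in no member window. The sequences below are not all of the MSA cores found, and none is from AT2G26760. They run 5′ to 3′ along the strand of the gene, with the core in capitals (AACGG where it lies on that strand, CCGTT where it lies on the other). Positions are those of the first base of the core, with the annotated start as 1 and the base before it as -1.
AT5G06150, core at -143, chr5:1861830-1861858: tatttacagtccAACGGcctcattcgatg
AT5G06150, core at -69, chr5:1861756-1861784: ctaacctatccaCCGTTagatctaaaatt
AT5G06150, core at -43, chr5:1861730-1861758: atttaatcatctAACGGcaacagatgaaa
AT5G06150, core at -11, chr5:1861698-1861726: ccaaaaatatgaCCGTTggaattgaaccg
AT1G44110, core at -205, chr1:16777541-16777569: cccaaaaggtgaCCGTTtgaaattcgaat
AT1G44110, core at -182, chr1:16777518-16777546: tcgaatttatttCCGTTtgaaattcgaat
AT4G37490, core at -168, chr4:17624460-17624488: agaataagtgggCCGTTgtgacttcaaaa
AT4G37490, core at -61, chr4:17624353-17624381: aaaacaatcagaCCGTTggggttcattta
AT2G17620, core at -85, chr2:7663958-7663986: ccctcatgatccAACGGttatattctaaa
AT4G35620, core at -124, chr4:16901460-16901488: ccttcatgatccAACGGtcatcttaatca
AT1G20930, core at -89, chr1:7294819-7294847: agaaaaaaagaaCCGTTgaaaaaacatga

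**Figure D1:**
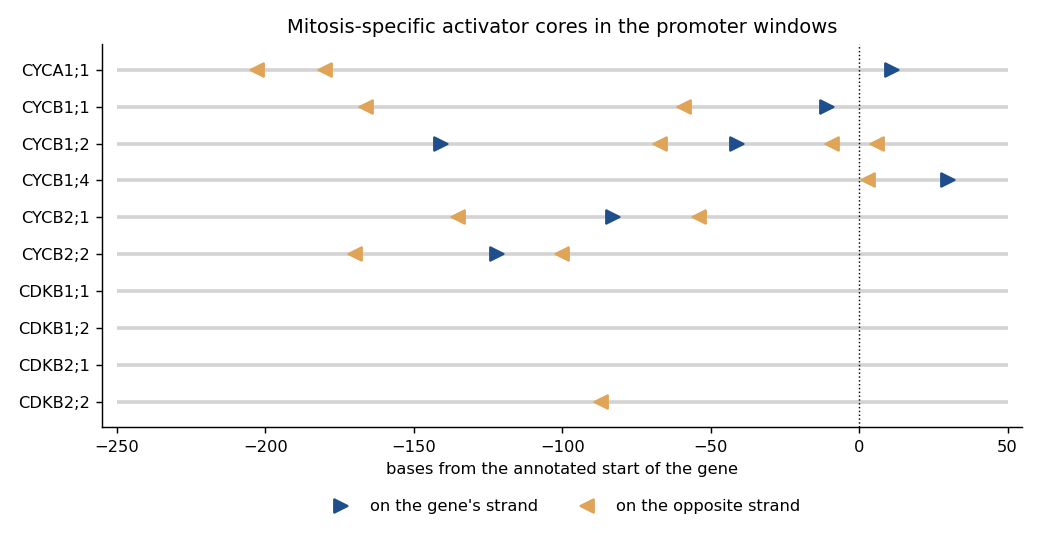
MSA cores in the promoter windows of the 10 members. The x axis gives bases from the annotated start of the gene (dotted line), each grey line is a window, and arrowheads mark cores on the strand of the gene or on the opposite strand. The 6 cyclins each have 2 to 5 cores, AT1G20930 has 1, and 3 kinases have none.

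A core in these letters is a description of the window and was not shown to be bound. The 3 B1 cyclins differed in where the cores lay. AT2G26760 had both of its cores after the start (at 1 and 28), whereas the other B1 cyclins, AT4G37490 and AT5G06150, had all but 1 of theirs before it. The B2 pair had 3 cores each, between -172 and -56. On TAIR10.1 the members lay on all 5 chromosomes. CYCB1;2 spans chr5:1859279-1861703 on the minus strand with 5 exons in its representative transcript of 1734 bases, CDKB1;2 spans chr2:16152473-16154086 on the plus strand with 4 exons in 1234 bases, and CDKB2;1 spans chr1:28720328-28722550 on the minus strand with 8 exons in 1367 bases. Pairs of members have similar coding sequences. Over aligned bases, identity was 86.6% for AT1G76540 and AT1G20930, 85.9% for AT3G54180 and AT2G38620, and 82.7% for AT2G17620 and AT4G35620. The longest run of identical bases was 29, 41 and 30 in these pairs. Reads that map to several places were not counted, so reads within such runs could be missing from either gene of a pair.

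The libraries held between 11811137 and 21485394 counts on genes, and levels are given as CPM, in which the counts of a gene are divided by a library size scaled with TMM factors so that libraries of unlike depth can be compared. The mitotic genes were low in these leaves. Over the 12 libraries their means lay between 0.128 and 4.51 CPM, and between 0% and 24.2% of the tested genes had a lower mean. AT2G17620, at a mean of 2.75 counts per library, missed the minimum mean of 10 counts and was not tested, so 9 of 10 members were among 18291 tested genes. Levels can be compared between genes only per length. In mock L12 the mean level per kilobase of transcript was 6.06 ± 2.45 CPM (SD, n = 3) for CDKB2;1, followed by 3.49 ± 1.23 for its pair partner AT1G20930, 2.79 ± 0.58 for AT3G54180 and 2.39 ± 1.29 for AT2G26760. AT5G06150 (2.18 ± 1.51), AT1G44110 (2.07 ± 1.20) and AT2G38620 (1.79 ± 0.25) followed, and AT4G35620 (1.05 ± 0.64), AT4G37490 (0.63 ± 0.46) and AT2G17620 (0.18 ± 0.13) were lowest. Of 9 neighbouring pairs in this order, 7 differed by less than the larger SD of the pair. The steps that exceeded this SD were those from AT1G76540 to AT1G20930 and from AT2G38620 to AT4G35620, and the order is otherwise a rough one.

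Between leaf ages, the means of all 10 members were higher in young than in old leaves after either spray, and 3 of the 9 tested members passed the test after mock and 1 after ABA. After mock treatment the mean of 10 of 10 members was higher in L12 than in L7, and the median log2 fold change of the 9 tested members was 1.56, against 0.04 over all tested genes. The groups did not overlap for 6 of 10 members, and 14.1% of tested genes had groups without overlap and higher in L12. The test called 3 members higher (CYCB1;2, CDKB1;2 and CDKB2;1) and none lower, where 6.81% of tested genes were called higher (quasi-likelihood test of edgeR, p adjusted by the Benjamini-Hochberg method to below 0.01, log2 fold change beyond 1). Some members reached the minimum mean of 10 counts only through L12. Summed counts in mock L7 and ABA L7 were 22 and 14 for AT5G06150 and 15 and 24 for AT2G38620. They were 12 and 4 for AT4G37490 and 23 and 25 for AT4G35620. The calls and medians for leaf age rest partly on these genes. After ABA the mean was again higher in L12 for 10 of 10 members, with a median log2 fold change of 1.25 against -0.04 over all tested genes. Here the groups of 8 of 10 members did not overlap, where 24.5% of tested genes had groups without overlap and higher in L12, and 1 member, CYCB1;2, was called, where 3.13% of tested genes were called higher. At an adjusted p below 0.05 with the same fold, 6 members were called after mock (16.7% of tested genes) and 6 after ABA (15.5%).

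**Figure D2:**
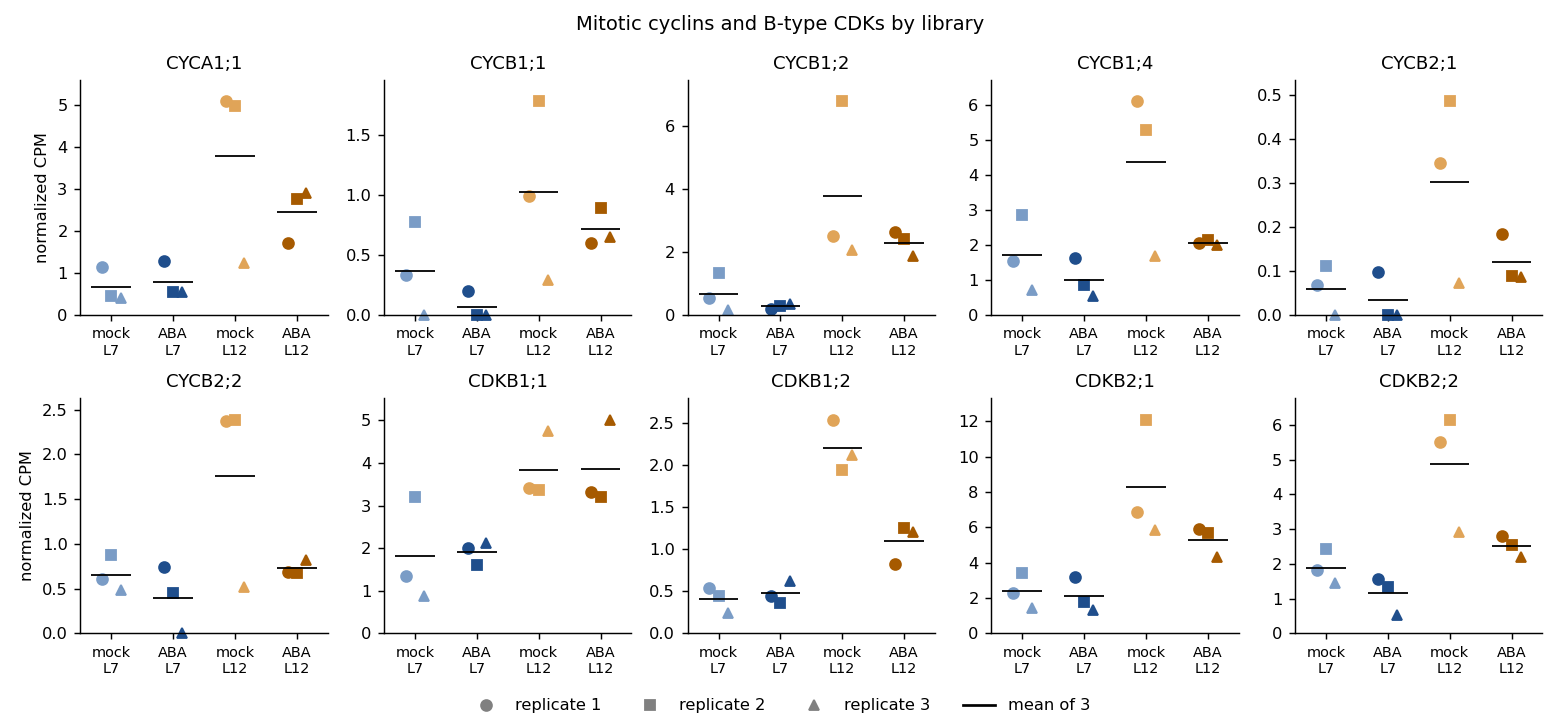
Level of each of the 10 members in each library, in normalized CPM on the y axis, by group. Symbols mark the replicate number and bars the mean of 3 libraries. Means are higher in L12 than in L7 for every member after either spray, and the mock L12 replicate 3 library is the lowest of its group for all 6 cyclins.

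CYCA1;1, an A-type cyclin that is present from S phase to mitosis, was at 1.14, 0.44 and 0.40 CPM in mock L7 and at 5.09, 4.98 and 1.24 CPM in mock L12. After ABA it was at 1.28, 0.54 and 0.53 CPM in L7 and at 1.70, 2.76 and 2.90 CPM in L12. Every L12 library was above every L7 library of the same spray, although in mock-treated leaves the margin rested on L12 replicate 3. The log2 fold change of L12 against L7 was 2.44 (SE 0.59, edgeR adjusted p = 0.0104) after mock, just beyond the threshold, and 1.82 (SE 0.57, edgeR adjusted p = 0.0310) after ABA.

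The B1 cyclins activate CDKs at the entry into mitosis, and reporters of AT4G37490 are the usual mark of cells in late G2 phase and mitosis. CYCB1;2 was at 0.54, 1.32 and 0.16 CPM in mock L7 and at 2.50, 6.80 and 2.05 CPM in mock L12. After ABA its level was 0.20, 0.27 and 0.36 CPM in L7 and 2.62, 2.41 and 1.86 CPM in L12. No L7 library reached an L12 library under either spray, and AT5G06150 was the member called in both comparisons of leaf age. It was higher in L12 by a log2 fold change of 2.52 after mock (SE 0.53, edgeR adjusted p = 0.00601) and of 3.19 after ABA (SE 0.57, edgeR adjusted p = 0.00704).

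AT4G37490 was near the limit of detection in old leaves. Mock L7 libraries held 5, 7 and 0 counts and ABA L7 libraries 4, 0 and 0, whereas mock L12 libraries held 23, 44 and 4 and ABA L12 libraries 13, 20 and 15. In CPM the mock groups overlapped (0.34, 0.77 and 0 in L7, 0.99, 1.78 and 0.29 in L12), and the ABA groups did not (0.20, 0 and 0 in L7, 0.60, 0.89 and 0.65 in L12). The log2 fold change was 1.56 (SE 0.85, edgeR adjusted p = 0.160) after mock and 3.44 (SE 1.05, edgeR adjusted p = 0.0286) after ABA. The latter rests on 4 counts in 1 library of ABA L7 and was between 2.35 and 7.37 when a library or a replicate number was left out.

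AT2G26760, the third B1 cyclin, was at 1.54, 2.86 and 0.72 CPM in mock L7 and at 6.12, 5.30 and 1.68 CPM in mock L12. In mock-treated leaves the groups overlapped through L12 replicate 3 and L7 replicate 2. After ABA it was at 1.62, 0.85 and 0.53 CPM in L7 and at 2.07, 2.14 and 1.99 CPM in L12, without overlap. The log2 fold change was 1.34 (SE 0.46, edgeR adjusted p = 0.0375) after mock and 1.19 (SE 0.47, edgeR adjusted p = 0.0687) after ABA.

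The B2 cyclins also act at mitosis. AT4G35620 was at 0.60, 0.88 and 0.48 CPM in mock L7, 2.37, 2.39 and 0.51 CPM in mock L12, 0.74, 0.45 and 0 CPM in ABA L7 and 0.69, 0.67 and 0.82 CPM in ABA L12. Its groups overlapped under either spray, and neither fold change passed the test (log2 fold change 1.32, SE 0.67, edgeR adjusted p = 0.135 after mock, and 1.04, SE 0.70, edgeR adjusted p = 0.259 after ABA). The untested AT2G17620 had 1, 1 and 0 counts in mock L7, 8, 12 and 1 in mock L12, 2, 0 and 0 in ABA L7 and 4, 2 and 2 in ABA L12. Its ratio of L12 to L7, scaled for library size, was 6.21 after mock (21 against 2 counts, exact 95% interval 1.52 to 54.7) and 3.21 after ABA (8 against 2 counts, 0.640 to 31.0). These intervals cover counting error only.

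The B1 kinases are needed for the divisions of the stomatal lineage and hold back endoreduplication. CDKB1;2 was at 0.54, 0.44 and 0.24 CPM in mock L7 and at 2.54, 1.94 and 2.12 CPM in mock L12, without overlap. After ABA it was at 0.44, 0.36 and 0.62 CPM in L7 and at 0.83, 1.25 and 1.21 CPM in L12, also without overlap. The log2 fold change was 2.42 (SE 0.45, edgeR adjusted p = 0.00401) after mock and 1.25 (SE 0.43, edgeR adjusted p = 0.0449) after ABA. AT3G54180, its pair partner, was at 1.34, 3.19 and 0.88 CPM in mock L7, 3.41, 3.36 and 4.76 CPM in mock L12, 2.01, 1.61 and 2.13 CPM in ABA L7 and 3.31, 3.21 and 5.02 CPM in ABA L12. Its groups did not overlap, but its fold changes were among the smallest of the group (log2 fold change 1.12, SE 0.45, edgeR adjusted p = 0.0689 after mock, and 0.99, SE 0.43, edgeR adjusted p = 0.0950 after ABA).

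The B2 kinases peak from G2 phase to mitosis and are needed for the organization of the shoot meristem. CDKB2;1 was at 2.28, 3.41 and 1.44 CPM in mock L7 and at 6.90, 12.10 and 5.86 CPM in mock L12. After ABA it was at 3.19, 1.75 and 1.33 CPM in L7 and at 5.89, 5.66 and 4.33 CPM in L12. AT1G20930 was at 1.81, 2.42 and 1.44 CPM in mock L7, 5.52, 6.15 and 2.93 CPM in mock L12, 1.57, 1.34 and 0.53 CPM in ABA L7 and 2.81, 2.54 and 2.21 CPM in ABA L12. Neither kinase overlapped between leaf ages. AT1G76540 was higher in mock L12 by a log2 fold change of 1.82 (SE 0.35, edgeR adjusted p = 0.00428), and in ABA L12 by 1.36 (SE 0.34, edgeR adjusted p = 0.0151), a value past 0.05 but not past 0.01. For AT1G20930 the log2 fold changes were 1.33 (SE 0.33, edgeR adjusted p = 0.0116) and 1.19 (SE 0.34, edgeR adjusted p = 0.0221).

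**Figure D3:**
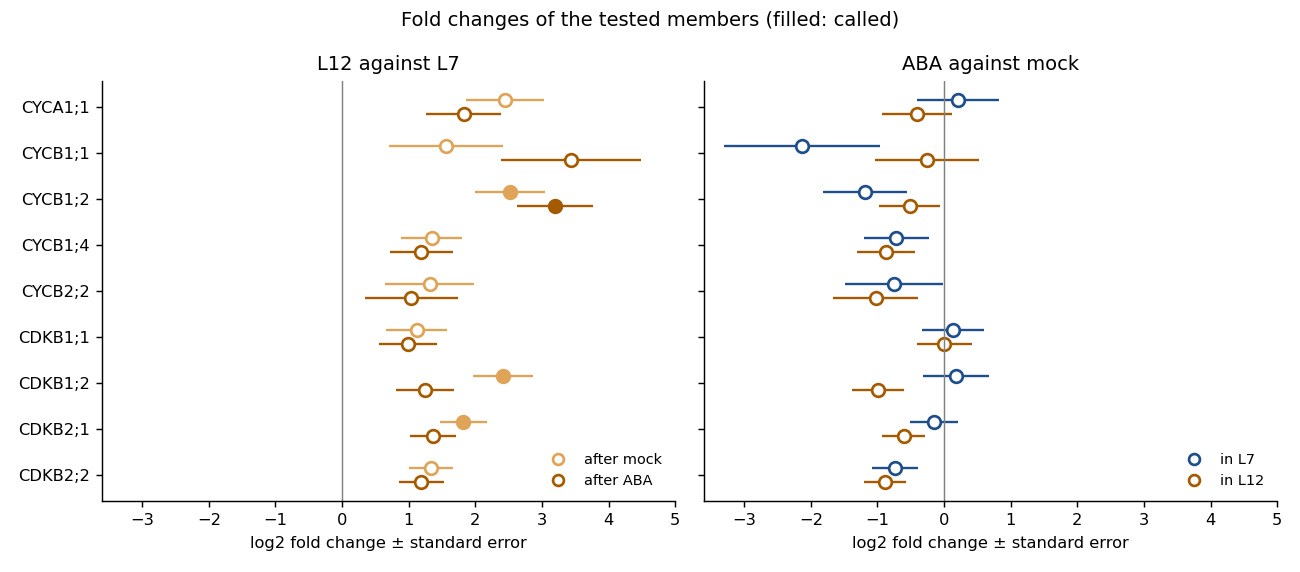
Log2 fold changes of the 9 tested members, with standard errors from edgeR as bars, for L12 against L7 (left) and ABA against mock (right). Filled points mark called genes. All points for leaf age lie at 0.99 or above, whereas for ABA most lie below 0 and none is filled.

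The direction of the age difference was the same under every alternative run, between log2 fold changes of 0.62 and 3.04 after mock and of 0.25 and 7.37 after ABA, but the calls were not. No member was called in either comparison without the replicate block, without replicate number 1, 2 or 3, or without mock L7 replicate 1. Calls over all genes fell too. The main fit called 1246 genes higher in L12 after mock and 573 after ABA, and without the block these counts were 23 and 6. They were 1 and 0 without replicate number 1, 129 and 347 without number 2, and 0 and 0 without number 3. Without mock L7 replicate 1 they were 310 and 263. After mock, none was called when only the groups compared were fitted or without mock L7 replicate 3 or mock L12 replicate 2, 1 was called without mock L7 replicate 2 or mock L12 replicate 1, and 5 were called without ABA L12 replicate 3. In the same order of fits, 312, 36, 306, 476, 809 and 1267 of all tested genes were called higher after mock. After ABA, CYCB1;2 lost its call without any of the 6 ABA-treated libraries, and in these fits 7 to 151 of all tested genes were called higher.

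Whether ABA changed the mitotic genes was asked in each leaf. In old leaves no member was called, where 2.94% of tested genes were called in either direction, and adjusted p lay between 0.188 and 0.870 (edgeR's quasi-likelihood test). At an unadjusted p below 0.05 (edgeR) there were also 0 members, where 5244 of 18291 tested genes had such a p. DESeq2 and limma with voom called 0 members. The median log2 fold change of the tested members was -0.72 against 0.03 over all tested genes, and the mean was higher after ABA for 3 of 10 members (CYCA1;1, AT3G54180 and AT2G38620). The groups overlapped for all 10 members, while 9.59% of tested genes were lower after ABA without overlap. The values farthest from 0 were those of AT4G37490 (log2 fold change -2.14, SE 1.17, edgeR adjusted p = 0.251, on 12 counts after mock and 4 after ABA), AT5G06150 (-1.19, SE 0.63, edgeR adjusted p = 0.240) and AT4G35620 (-0.75, SE 0.74, edgeR adjusted p = 0.525). With a library or a replicate number left out, these values ran from -5.91 (without ABA L7 replicate 1) to -1.04 (without ABA L7 replicate 2), from -1.88 to -0.42 and from -1.65 to -0.29.

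In young leaves no member was called either, where 4.54% of tested genes were. The mean was lower after ABA for 9 of 10 members, and the median log2 fold change was -0.61 against 0.03 over all tested genes. CDKB1;2 and CDKB2;2 had groups that did not overlap and were lower after ABA, where 16.9% of tested genes had such groups. AT2G38620 had 1.94 to 2.54 CPM after mock and 0.83 to 1.25 CPM after ABA (log2 fold change -0.995, SE 0.39, edgeR adjusted p = 0.105), and AT1G20930 had 2.93 to 6.15 and 2.21 to 2.81 CPM (-0.88, SE 0.32, edgeR adjusted p = 0.0831). These 2 members were also the ones with an unadjusted p below 0.05 in this comparison (edgeR), where 6257 of 18291 tested genes had such a p. DESeq2 and limma with voom called 0 members. AT3G54180 had a mean of 3.84 CPM after mock and 3.85 CPM after ABA, with a log2 fold change of 0.00 (SE 0.42, edgeR adjusted p = 0.995). For AT2G17620 the ratio of ABA to mock was 0.349 in L12 (8 against 21 counts, exact 95% interval 0.134 to 0.819) and 0.676 in L7 (2 against 2 counts, 0.0490 to 9.32), by counting error only.

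The responses of the leaves to ABA were not distinguishable for these genes. The difference of the responses, L12 minus L7, was between -1.17 (AT2G38620, SE 0.63) and 1.88 (AT4G37490, SE 1.38) on the log2 scale, with edgeR adjusted p between 0.741 and 0.976. Over all genes tested, none passed the threshold for the difference (0%), while 1358 had an unadjusted p below 0.05 with edgeR, DESeq2 called 35 and limma with voom called 0. No member was called by any of the 3 tools. Comparisons that share a group of libraries are not independent, so the mock and ABA columns of values above are given side by side and not correlated.

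The mock L12 libraries were unlike each other. Replicate 3 of mock L12 differed from the mean of the other 2 libraries by -2.00 to -0.98 on the log2 scale for the 6 cyclins, by -0.97 for CDKB2;2 and by -0.63 for CDKB2;1, whereas AT2G38620 differed by -0.06 and AT3G54180 by 0.48. Summed over the 6 cyclins, mock L12 held 17.4, 21.7 and 5.86 CPM, and ABA L12 held 7.87, 8.96 and 8.31 CPM, so the ABA libraries lay inside the range of the mock libraries. The 4 kinases summed to 18.4, 23.6 and 15.7 CPM in mock L12 and to 12.8, 12.7 and 12.8 CPM in ABA L12, without overlap. In old leaves the cyclins summed to 1.77 to 6.38 CPM after mock and 1.42 to 4.13 CPM after ABA, and the kinases to 4.01 to 9.47 and 4.62 to 7.22 CPM.

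**Figure D4:**
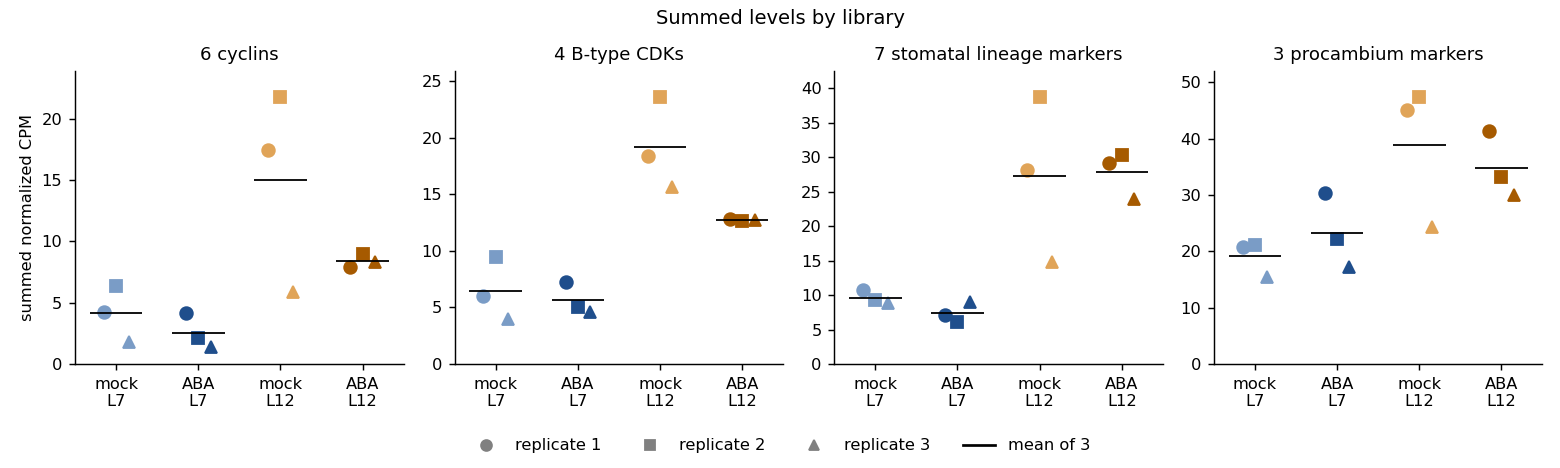
Summed level in normalized CPM (y axis) of the 6 cyclins, the 4 B-type CDKs, 7 stomatal lineage markers and 3 procambium markers in each library, by group. Symbols mark the replicate number and bars the mean of 3 libraries. The cyclins in mock L12 replicate 3 are at 5.86 CPM, below all 3 ABA L12 libraries, and the stomatal lineage markers there are at 14.8 CPM, the lowest of the L12 libraries.

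The libraries of replicate 3 stood apart by transcript length. Spearman correlations across genes between the deviation of a library from the gene means of its group and transcript length were -0.57 to -0.39 in the 4 libraries of replicate 3 and 0.02 to 0.59 in the other 8. These deviations sum to 0 within a group, so the ranges are not independent. With each library adjusted for length and GC content, mock L12 replicate 3 still differed by -2.12 to -0.98 on the log2 scale for the 5 tested cyclins. With this correction 5 members were called for leaf age after mock, where 794 of 18179 genes were called higher. Markers of the stomatal lineage summed to more in every L12 library than in any L7 library, but EPF1, FAMA and SPCH by themselves overlapped. EPF1 was at 2.97 CPM in mock L7 replicate 3, above every L12 library. FAMA was at 8.73 CPM in mock L7 replicate 1 and at 8.57 CPM in mock L12 replicate 3. The 7 markers (SPCH, MUTE, FAMA, TMM, BASL, EPF1 and EPF2) summed to 8.83 to 10.7 CPM in mock L7, 6.14 to 8.97 CPM in ABA L7, 14.8 to 38.7 CPM in mock L12 and 24.0 to 30.3 CPM in ABA L12. In L12 their means were 27.2 CPM after mock and 27.8 CPM after ABA, against 34.2 and 21.1 CPM for the sum of the 10 members. The early markers SPCH, MUTE and BASL summed to 0 to 0.440 CPM in the L7 libraries and to 0.586 to 4.78 CPM in the L12 libraries, and SPCH in mock L12 replicate 3 differed from the mean of the other libraries of the group by -2.43 on the log2 scale. Of the other stomatal lineage markers in that library, EPF1 differed by 0.30 and the rest by -2.64 to -0.78. Procambium markers (PXY, WOX4 and ATHB8) summed to 15.5 to 30.3 CPM in L7 and 24.3 to 47.3 CPM in L12. WOX4 by itself was at 1.93 to 4.97 CPM in L7 and 1.78 to 3.95 CPM in L12. Shoot meristem markers (STM, WUS, CLV3, KNAT1 and KNAT2) summed to at most 0.936 CPM in any library, with all 5 at 0 in mock L12, and flower organ markers (AP3, PI and AG) to at most 1.39 CPM. The 4 mesophyll markers (RBCS1A, LHCB1.1, LHCB2.1 and CA1) were abundant, and their sum was lower after ABA without overlap. It was at 25171 to 48556 CPM in mock L7, 8752 to 14912 CPM in ABA L7, 25364 to 51479 CPM in mock L12 and 13702 to 19806 CPM in ABA L12. RBCS1A by itself overlapped in L7, at 9204 to 16892 CPM after mock and 6319 to 10707 CPM after ABA. Mock L12 replicate 3, the library low in cyclins, had the highest sum of all 12. The part of these cells in the differences was not tested, and in a whole leaf fewer dividing cells cannot be told apart from less RNA per dividing cell.

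Other genes of the cell cycle were read from lists drawn up for this purpose. For each list below, the shares over all tested genes were 6.81% called higher in mock L12 and 3.13% called higher in ABA L12. Called lower after ABA in L12 were 563 of 18291 tested genes. Among 10 tested of 13 other A- and B-type cyclins, 3 were called higher in mock L12 and 1 in ABA L12. CYCA2;3 (AT1G15570), the partner of B1 kinases that restrains endoreduplication, was at 0.741 ± 0.223 CPM in mock L7 and 5.53 ± 1.75 CPM in mock L12 (SD, n = 3). It had log2 fold changes of 2.90 after mock (edgeR adjusted p = 0.00122) and 2.73 after ABA (edgeR adjusted p = 0.00259). CYCA1;2 (AT1G77390) and the B2 cyclin CYCB2;3 (AT1G20610) were called after mock, at log2 fold changes of 3.42 and 2.18. CYCA3;2 (AT1G47210), an S phase cyclin, was called lower after ABA in L12 (18.6 ± 3.02 to 7.31 ± 1.46 CPM, SD, n = 3, log2 fold change -1.33, edgeR adjusted p = 0.00756), and in L7 its value was -1.29 (edgeR adjusted p = 0.0121).

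D-type cyclins, which link growth signals to the entry into the cycle, were split. Of 9 tested of 10, CYCD3;1 (AT4G34160, log2 fold change 1.62) and CYCD1;1 (AT1G70210, 1.34) were called higher in mock L12, none was called in another comparison, and the median for leaf age after mock was 0.02. Of 14 tested of 16 CDK inhibitors, 1 was called lower in mock L12, where 1482 of 18291 tested genes were, and the median log2 fold change was -0.51. AT1G10690 was called lower in mock L12 (12.5 ± 5.66 CPM in L7, 3.29 ± 0.78 CPM in L12, SD, n = 3, log2 fold change -1.87, edgeR adjusted p = 0.00214), and AT5G40460 was called lower after ABA in L12 (2.90 ± 1.99 to 0.382 ± 0.327 CPM, SD, n = 3, log2 fold change -2.96, edgeR adjusted p = 0.00241). Neither inhibitor has a symbol in the annotation used.

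Among 19 CDK partners and regulators, all tested, 6 were called higher in mock L12 and none in ABA L12. RBR1 (AT3G12280), the retinoblastoma homologue, was higher by a log2 fold change of 2.22. UVI4 (AT2G42260), an inhibitor of the anaphase-promoting complex, was higher by 2.53, and the near-identical activators of that complex CDC20.2 (AT4G33260) and CDC20.1 (AT4G33270), between which reads may be split, by 2.65 and 2.57. Spindle and cytokinesis genes, 15 tested of 15, gave 6 called higher after mock and 5 after ABA. TOPII (AT3G23890), which untangles chromosomes, and MAP65-3 (AT5G51600), a crosslinker of phragmoplast microtubules, were among the called genes under either spray, at log2 fold changes of 4.30 and 3.08 after mock and 3.98 and 3.54 after ABA. TOPII was at 0.335 ± 0.152 CPM in mock L7, 9.46 ± 11.7 CPM in mock L12 and 6.80 ± 2.31 CPM in ABA L12 (SD, n = 3). MAP65-3 was at 0.279 ± 0.234, 2.93 ± 2.62 and 2.81 ± 1.01 CPM in the same groups. EDE1 (AT2G44190, 2.98) and the centromeric histone CENH3 (AT1G01370, 1.49) were called after mock, and CENH3 was also called lower after ABA in L12 (log2 fold change -1.61, edgeR adjusted p = 0.00750). All 6 subunits of the MCM helicase, which licenses replication origins, were called higher in mock L12 and 4 in ABA L12. MCM4 (AT2G16440), MCM5 (AT2G07690), MCM7 (AT4G02060) and MCM2 (AT1G44900) were higher after mock by 2.52, 2.69, 2.79 and 3.61 on the log2 scale. No gene of these lists was called for ABA in L7 or for the difference of the responses, where the smallest adjusted p of a list lay between 0.340 and 0.808 for the difference (edgeR). DESeq2 called 7 list genes for ABA in L7, and 1 for the difference, where it called 35 over all genes. In L7 edgeR called 1 list gene without ABA L12 replicate 3 or without mock L12 replicate 2. Over the 6 lists, 24 genes were called for leaf age after mock and 10 after ABA, and none of them without the replicate block, where 0 were called in either comparison. After either spray the count was 0, 1 and 0 without replicate numbers 1, 2 and 3. The count after mock was 7, 12 and 2 without mock L7 replicates 1, 2 and 3 and 13 and 9 without mock L12 replicates 1 and 2. After ABA it was 0 or 1 without any of the 6 ABA-treated libraries, 4 and 1 without mock L7 replicates 1 and 3, and 18 without mock L12 replicate 2.

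**Figure D5:**
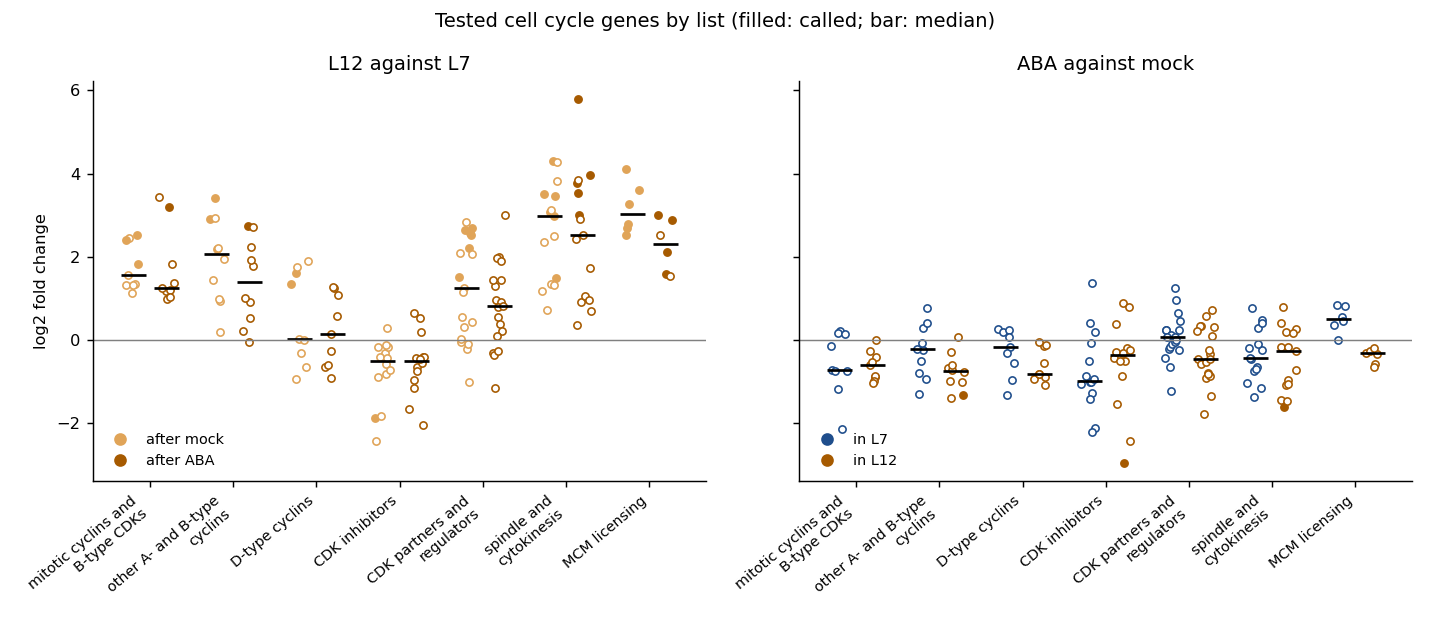
Log2 fold changes (y axis) of every tested gene of the 10 members and of 6 other cell cycle lists, for L12 against L7 (left) and ABA against mock (right). Points are genes, filled where called, and bars are list medians. In mock leaves the medians for leaf age are 1.56 for the members, 2.98 for spindle and cytokinesis genes, 3.03 for MCM genes and -0.51 for CDK inhibitors.

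The members followed a common course over the libraries. The Pearson correlation of each tested member with the mean standardized log2 CPM of the other tested members over the 12 libraries was 0.70 (AT3G54180) to 0.97 (AT1G76540), and all points share the group structure, depth and scaling of the same libraries. Among the tested genes outside the group, the 10 most like the mean of the tested members were AT2G33400 (r = 0.991), VIM1 (0.987), RECQI1 (0.983), AT5G51560 (0.983), EMB2813 (0.979), FTSZ2-2 (0.975), the B2 cyclin AT1G20610 (0.975), AT3G23740 (0.971), DEL3 (0.970) and UDG4 (0.970). VIM1 (AT1G57820) maintains DNA methylation after replication and DEL3 (AT3G01330) is an atypical E2F factor. Of these 10 genes, 4 stayed among the 10 most alike when replicate number 1, 2 or 3 was left out. Of the cell type markers, those of the stomatal lineage that were compared correlated with the members at r = 0.92 (SPCH), 0.88 (MUTE), 0.87 (FAMA), 0.72 (TMM) and 0.48 (EPF1), and those of the procambium at 0.88 (ATHB8), 0.80 (PXY) and -0.15 (WOX4). In mock L7 replicate 3, TMM and EPF1 differed from the mean of the other libraries of the group by 0.68 and 1.34 on the log2 scale, whereas the members differed by -2.52 to -0.51. FAMA, SPCH and MUTE differed in the direction of the members, by -0.97, -0.80 and -0.80. SPCH and MUTE were at no more than 0.220 CPM in mock L7.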

How the data were processed

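The authors extracted total RNA, enriched polyadenylated RNA and made directional libraries. According to the labels they used CASAVA 1.8.2, cutadapt 1.5, TopHat2 2.0.10 and HTSeq 0.6.1 with TAIR10, and the values they deposited are raw counts per gene, without normalization. How HTSeq treated overlaps and strand is not stated in the labels or the methods, so reads of overlapping genes could be lost or shared. The 5 summary lines of HTSeq held 5.97% to 10.3% of counts per library and were left out. Nothing states whether leaves of several plants were pooled, so p-values measure the spread between these libraries. Counts within a group differed by a chi-square per degree of freedom of 29.6 to 248, so no library was a copy.

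Those 18291 of 32678 genes that averaged 10 counts or more per library were fitted in R 4.3.3 with edgeR 4.0.16 (TMM factors, quasi-likelihood test, group terms for the 4 groups and a block for the replicate number). The study's own model held treatment, leaf age and replicate and was fitted with limma and voom, which is an alternative here. Calls needed a p below 0.01 after Benjamini-Hochberg adjustment, and a log2 fold change beyond 1 in size. Prior counts were 0.125 for fold changes and 2 for log2 CPM. The block rests on the repeated experiment, and the deviations of same-numbered libraries from their group means correlated at -0.0234 to 0.650 (median 0.361, 16 of 18 pairs over 0.1), against a median of -0.217 for the other 36 pairs. Deviations sum to 0 within a group, so the other pairs tend below 0 where same-numbered pairs lie above it. The medians are therefore not independent. Alternatives were DESeq2 1.42.0, limma 3.58.1 with voom, other scalings, filters and thresholds, no block, only the groups compared, each library and each replicate number left out, and a correction for transcript length and GC content.

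All 10 members are named. From each list of other genes up to 4 called genes with the smallest adjusted p are named, and the 10 tested genes most correlated with the members. The members and the lists were chosen with earlier results of these data known. Positions, transcript lengths and promoter sequences come from RefSeq's annotation of TAIR10.1, matched by locus (31912 of 32678 genes). The count table has no coordinates.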

Additional observations from a re-analysis of the deposited data

How the results depend on the processing

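All directions of the differences between leaf ages held under every alternative, but their calls did not. For L12 against L7 after mock, where 3 members were called, the count was 5 with DESeq2 and with the length and GC correction, 6 at an adjusted p below 0.05, 0 when only the groups compared were fitted, and 0 to 5 when a library or a replicate number was left out. For L12 against L7 after ABA, where 1 was called, it was 5 with DESeq2, 6 at an adjusted p below 0.05, 0 with scaling by library size only, and 0 to 1 with a library or replicate number left out. Without the replicate block, 0 members were called in either comparison, and the edgeR adjusted p of CDKB1;2 after mock was 0.0130. The cause was not tested. Over all genes, called higher and lower in L12 were 1246 and 1482 after mock (1049 and 601 by library size only) and 573 and 673 after ABA (96 and 125 by library size only, 724 and 549 with RLE factors). With DESeq2, which called more genes in all, they were 2571 and 2122 after mock and 2521 and 1522 after ABA. After mock they were 794 and 1067 with the length and GC correction, and 312 and 562 when only the groups compared were fitted. Without the replicate block they were 23 and 76 after mock and 6 and 6 after ABA. Scaling by library size only moved the median of all genes to 0.39 after mock and 0.25 after ABA. For ABA against mock and for the difference of the responses, 0 members were called under every alternative. Signs there were unstable. By library size only, the log2 fold change of CDKB2;1 in L7 was 0.32 (0.019 with the length and GC correction), that of CYCA1;1 in L12 was 0.0021 and that of CYCB1;1 in L12 was 0.13. With a library or replicate number left out, values in L7 ran from -0.16 to 0.67 for CYCA1;1, -0.33 to 0.87 for CDKB1;1, -0.29 to 0.50 for CDKB1;2 and -0.63 to 0.26 for CDKB2;1, and without a change of sign from -5.91 to -1.04 for CYCB1;1 and -1.65 to -0.29 for CYCB2;2. In L12 they ran from -1.06 to 0.12 for CYCA1;1, -0.98 to 0.18 for CYCB1;1 and -0.25 to 0.19 for CDKB1;1. For the difference they ran from -0.66 to 0.76 for CYCB1;4, -1.44 to 1.08 for CYCB2;2, -0.86 to 0.32 for CDKB1;1, -0.75 to 0.0029 for CDKB2;1 and -0.55 to 0.29 for CDKB2;2. With means of 2.75 to 91.3 counts per library, counting error adds to the spread between libraries, and its share was not tested. The better counted members also varied, as CDKB2;1 had 160, 299 and 80 counts in mock L12. AT2G17620 could not be fitted under the main filter.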
